A study of Caenorhabditis elegans with 2 samples.

Results

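The AAA ATPase CDC-48 and its cofactors are represented here by 7 genes of Caenorhabditis elegans, namely cdc-48.1, cdc-48.2, ufd-1, ufd-2, ufd-3, npl-4.1 and npl-4.2, out of 19973 protein-coding genes on the nuclear chromosomes. They were chosen by name, as the CDC-48 paralogues and their best-known cofactors, with the promoter signals of these same peak lists already known. The values at their promoters are therefore a description, and no test was run on them. The assay was chromatin immunoprecipitation followed by sequencing (ChIP-seq) of eGFP-tagged NHR-6, the NR4A nuclear receptor of the worm, in whole L4 larvae of pooled sexes. There was 1 group with 2 biological replicates. The strain was OP90, genotype unc-119(ed3) III; wgIs90, in which the insertion wgIs90 carries the tagged nhr-6, so both replicates share the unc-119 allele and the transgene. Whole animals mix all tissues, so a peak cannot be assigned to the cells it came from. No untagged strain was analysed here. Read depth is unknown from peak lists.

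CDC-48, called p97 or VCP in mammals, is a ring-shaped ATPase that pulls ubiquitin-modified proteins out of membranes, complexes and chromatin so that the proteasome can degrade them. UFD-1 and NPL-4 form the heterodimer that brings ubiquitin chains to it. UFD-2 is a ubiquitin ligase that lengthens existing chains, and UFD-3, whose human counterpart is PLAA, binds ubiquitin and CDC-48. The worm is unusual in having a pair of cdc-48 genes, which act largely redundantly in its development.

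4 peak lists in build ce11 were used. The relaxed lists of replicate 1, replicate 2 and the pooled replicates contain both peaks and background, with 26801, 30000 and 30000 entries. The thresholded list, cut by the authors by irreproducible discovery rate, equals the 2720 pooled entries of highest signal. A single entry in it need not be alike in both replicates. Each entry has a signal, the authors' own value on a scale not given in the sources used here, so signals are compared only within a list and ranks (1 for the strongest) are counted within it. The promoter window of a gene covered the 1000 bp before its 5′ end in the annotation and the first 200 bp after it, and a peak was counted there when its summit fell inside.

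Of the 7 genes, 3 had a thresholded promoter peak, cdc-48.1, ufd-3 and ufd-2, against 10.5% of all protein-coding genes (2097 of 19973). Of the others, cdc-48.2 and ufd-1 had weaker entries in the relaxed lists, and npl-4.1 and npl-4.2 had none in any list. The lowest signal of the thresholded list was 27.5. The closest gene inside that limit was ufd-2 with a pooled signal of 32.3, and the closest outside was cdc-48.2 with 24.6.

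The stretches of 101 bases around the summits of the 4 genes with the strongest entries are shown because they hold the point of highest signal in each promoter. They were read from the RefSeq WBcel235 genome, centred on the summit of the pooled list and written 5′ to 3′ on the strand of the gene. Capitals mark matches to any of 14 short motifs described with the sequence features. They come from chrII:10563514-10563614 on the minus strand (cdc-48.1), chrII:8138223-8138323 on the plus strand (cdc-48.2), chrII:9940597-9940697 on the plus strand (ufd-3) and chrII:8062388-8062488 on the plus strand (ufd-2).
cdc-48.1: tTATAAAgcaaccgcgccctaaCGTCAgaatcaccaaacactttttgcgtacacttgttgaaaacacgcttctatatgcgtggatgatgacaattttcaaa
cdc-48.2: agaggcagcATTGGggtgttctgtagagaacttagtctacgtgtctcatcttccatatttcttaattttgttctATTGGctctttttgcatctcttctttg
ufd-3: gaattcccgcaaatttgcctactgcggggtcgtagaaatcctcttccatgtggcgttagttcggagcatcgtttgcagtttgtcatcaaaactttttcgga
ufd-2: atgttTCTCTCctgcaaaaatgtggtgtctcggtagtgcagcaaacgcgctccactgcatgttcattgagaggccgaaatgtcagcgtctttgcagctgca

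The ATPase gene cdc-48.1 (WBGene00007352, chromosome II, 10560036 to 10563407, minus strand) had one of the strongest promoter peaks in the genome. Its signal was 91.7 in replicate 1, 103.4 in replicate 2 and 193.1 in the pooled list. The corresponding ranks were 21, 5 and 6. In the relaxed list of replicate 1, 14 of the 28 mitochondrial entries stood above it, and among nuclear entries alone its rank was 7. Counted over genes, 2 genes had a stronger promoter peak in replicate 1, 0 in replicate 2 and 1 in the pooled list. In each replicate taken alone it was thus among the 7 strongest nuclear entries.

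The cdc-48.1 peak was narrow, and its replicate summits lay close together, as did those of ufd-2 and ufd-3. The thresholded interval, from 10563472 to 10563682, was 211 bp wide, against a median of 316 bp for the list. It lay in intergenic sequence, within the 704 bp that separate the gene from its upstream neighbour C06A1.6. Summits lay 182 bp upstream of the 5′ end in replicate 1, 168 bp in replicate 2 and 157 bp in the pooled list. The gap of 14 bp between replicate summits compares with a median of 33.5 bp over the 2686 thresholded peaks that had a summit of each replicate within 500 bp, and with a lower quartile of 14.25 bp. No other protein-coding gene had this summit in its promoter window. The snoRNA gene C06A1.9, at 10562952 to 10563064, lies 500 bp from the summit and does not overlap the peak.

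The paralogue cdc-48.2 (WBGene00008053, chromosome II, 8138496 to 8141230, plus strand) had no thresholded peak, but its promoter was not empty in the relaxed lists. Its strongest promoter entry had a signal of 15.9 in replicate 1, 12.1 in replicate 2 and 24.6 in the pooled list. The ranks were 2371, 3781 and 3271, so that in replicate 1 it would have stood among the 2720 strongest and in replicate 2 it would not. In the pooled list 2441 genes had a stronger promoter peak. The deposited −log10 q-value of the pooled entry was 3.91, the highest in that list. It was shared by 4093 pooled entries and by all 2720 thresholded ones. In replicate 1 the value was 4.04, also the highest of its list, and in replicate 2 it was 3.40, below the highest of 3.83.

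The position of the cdc-48.2 signal differed between the replicates. In replicate 1 the strongest summit lay 230 bp upstream of the 5′ end, close to the pooled summit at 223 bp. In replicate 2 there were 2 entries of similar signal, one of 12.1 at 852 bp and one of 10.2 at 405 bp upstream. The replicate summits nearest to the pooled one were 175 bp apart, and their intervals overlapped by 137 bp. Of the thresholded peaks with summits of both replicates, 3.05% had a larger gap. The value of 12.1 in replicate 2 therefore belongs to another position than the 15.9 in replicate 1. It lies 726 bp upstream of ctns-1, the divergent neighbour, and so falls in the promoter windows of both genes.

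Side by side, cdc-48.1 and cdc-48.2 had pooled signals of 193.1 and 24.6 and ranks of 6 and 3271. In replicate 1 the signals were 91.7 for cdc-48.1 and 15.9 for cdc-48.2. In replicate 2 they were 103.4 for cdc-48.1 and 12.1 for cdc-48.2, the latter from the entry at 852 bp upstream and not at the replicate 1 position. The order was alike in all 3 relaxed lists, and the pair was chosen for this difference, which is given as a description. The paralogues are much alike in what they encode and not in the sequence before it. Their annotated proteins, of 809 residues for cdc-48.1 and 810 for cdc-48.2, were 88.1% identical in a global alignment. The coding sequences were also alike, at 76.0%. Over the 300 bases from 250 before to 50 after the 5′ end, identity was 54.7%. No stretch of 36 bases within the strongest pooled promoter peak of either gene occurred elsewhere in the genome, so neither peak lies in sequence shared by the paralogues. The same was true of both genes over their whole length.

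**Figure D1:**
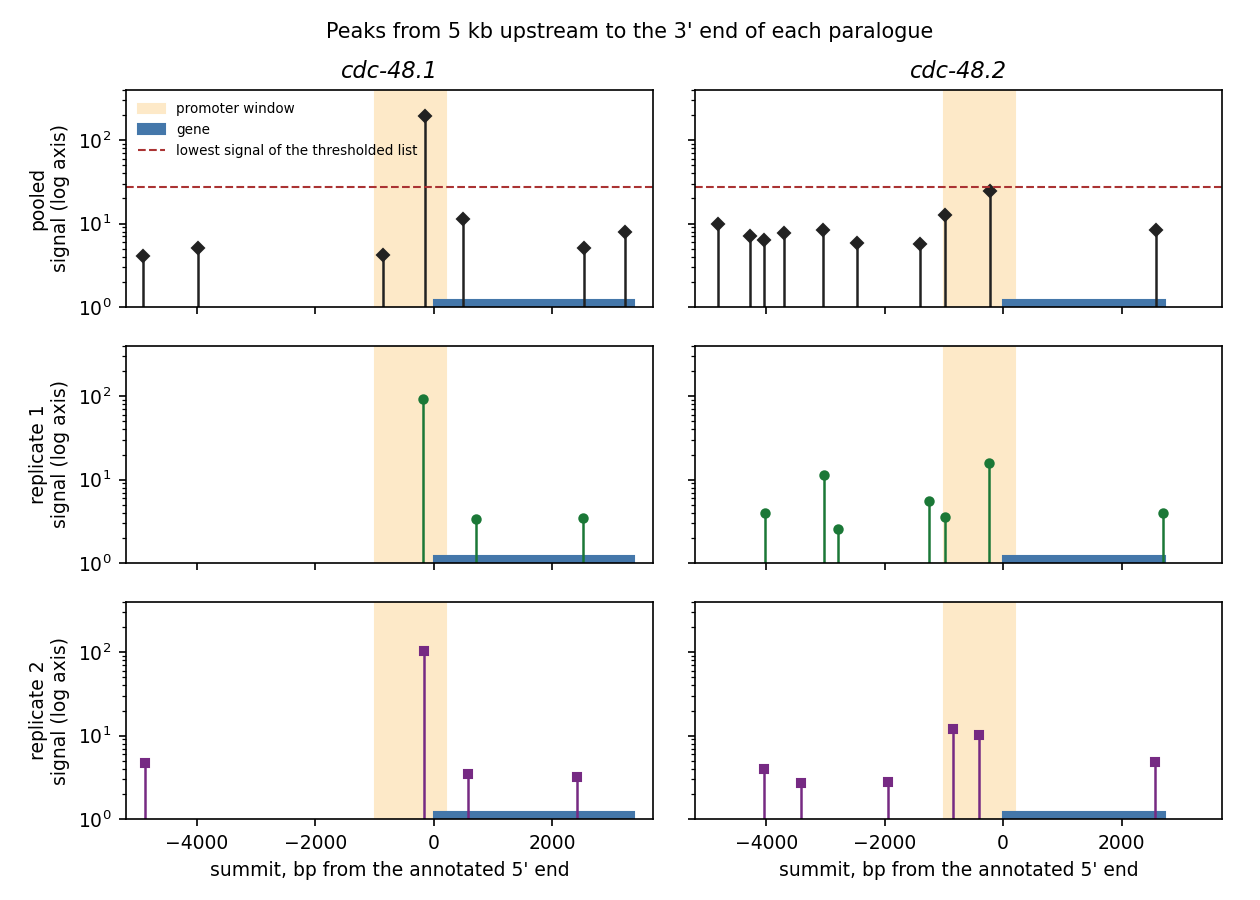
Signal (log axis) of every relaxed entry from 5 kb upstream to the 3′ end of cdc-48.1 (left) and cdc-48.2 (right), by distance of its summit from the annotated 5′ end in bp, in the pooled list and in each replicate. The shaded band is the promoter window, the bar at the bottom the gene and the dashed line the lowest signal of the thresholded list, 27.5. A single tall entry stands before cdc-48.1, at 193.1 in the pooled list, while the highest entry at cdc-48.2 reaches 24.6.

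Among the cofactors, ufd-3 (WBGene00007333, chromosome II, 9940753 to 9944107, plus strand) had the strongest promoter peak. Its signal was 32.7 in replicate 1, 22.8 in replicate 2 and 55.8 in the pooled list, with ranks of 418, 1084 and 523. In both replicates it was among the 2720 strongest. The summits lay 112, 101 and 106 bp upstream of the 5′ end in replicate 1, replicate 2 and the pooled list, 11 bp apart between the replicates. The interval from 9940489 to 9940804 falls largely in the 320 bp between ufd-3 and the upstream gene C05C10.5 on the same strand.

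The chain-elongating ligase gene ufd-2 (WBGene00006734, chromosome II, 8062741 to 8066193, plus strand) had a weaker peak. Its signal was 14.4 in replicate 1, 17.7 in replicate 2 and 32.3 in the pooled list. The ranks were 2824, 1914 and 2012. Among nuclear entries its rank in replicate 1 was 2798, just outside the 2720 strongest of that replicate. The summits agreed closely in position, at 301, 290 and 303 bp upstream in replicate 1, replicate 2 and the pooled list. As for ufd-3 the peak was intergenic and lay in no promoter window of another protein-coding gene.

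The ubiquitin-binding cofactor gene ufd-1 (WBGene00006733, chromosome IV, 12329408 to 12330890, minus strand) had entries only deep in the relaxed lists. Its strongest promoter entry had a signal of 5.82 in replicate 1 (rank 10139) and 9.11 in the pooled list (rank 12694), and replicate 2 had none in the window. Relaxed promoter entries of this kind are common, as 38.8% of protein-coding genes had at least 1 in replicate 1, 41.9% in replicate 2 and 41.0% in the pooled list. The pooled summit fell in the annotated 3′ untranslated region of F19B6.1, which lies on the same strand and ends 85 bp before ufd-1 begins. The window of ufd-1 thus covers the end of another gene for most of its length.

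Neither npl-4.1 (WBGene00019120, chromosome II, 5631351 to 5633284, plus strand) nor npl-4.2 (WBGene00019121, chromosome II, 5622889 to 5624959, plus strand), the genes of the UFD-1 partner, had an entry in its promoter window in any list. These genes are near-identical copies on the same chromosome with other genes between them, and the absence cannot be read like that of a unique gene. Their proteins, of 529 residues each, were 99.1% identical. In the 300 bases around the 5′ end they differed at 1 position, and upstream of it 1325 bases in a row were the same. Of all stretches of 36 bases in either promoter window, 96.9% occurred more than once in the genome, and of those of 50 bases 95.7%. At both lengths the most repeated stretch had 3 copies, so some of this sequence is not limited to the pair. The other 5 genes had 0 repeated stretches of 36 bases in the window, except cdc-48.1 with 9.35%, all between -1000 and -797 bp from the 5′ end and outside its peak. Neither the read length nor the treatment of reads with several matches is stated in the labels or listings, and the part of this repetition in the absence of peaks was not tested.
The last 101 bases before the 5′ end are the same in both genes and are printed once. They lie at chrII:5631250-5631350 (npl-4.1) and chrII:5622788-5622888 (npl-4.2), both on the plus strand.
npl-4.1 and npl-4.2: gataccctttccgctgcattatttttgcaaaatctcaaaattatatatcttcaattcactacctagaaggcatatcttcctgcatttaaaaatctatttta

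**Figure D2:**
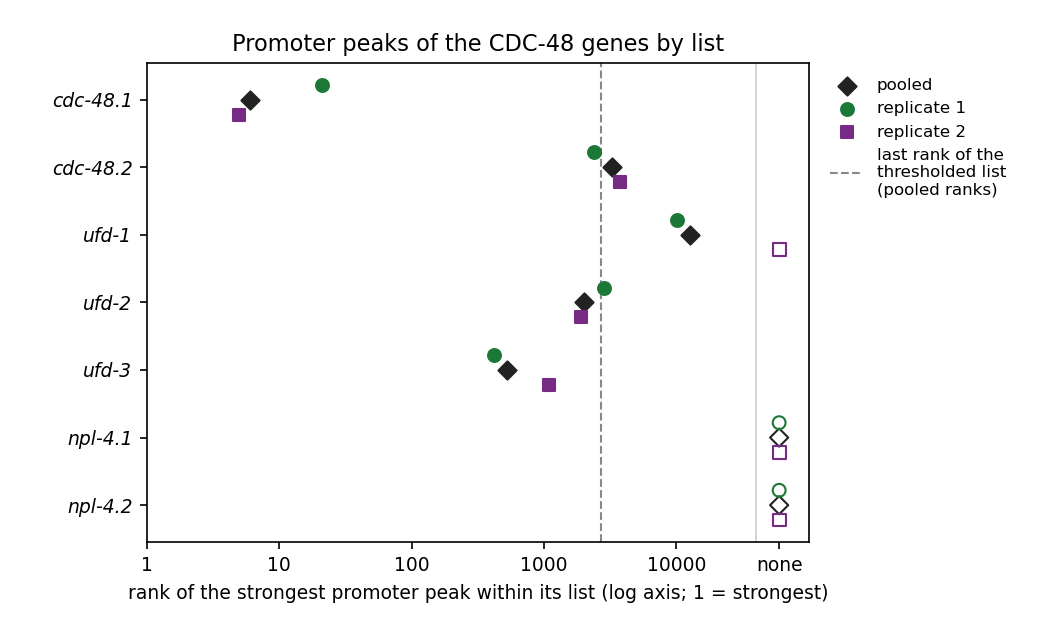
Rank of the strongest promoter peak (log axis, 1 for the strongest) of each of the 7 genes within the pooled list, replicate 1 and replicate 2. Open symbols at the right mark genes without an entry in the window, and the dashed line is rank 2720, the last rank of the thresholded list. cdc-48.1 stands apart at ranks 21, 5 and 6 in replicate 1, replicate 2 and the pooled list, while cdc-48.2 and ufd-2 lie on both sides of the line.

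Between 2 and 5 of the 7 genes had a promoter peak, depending on the list and the rule. With the 2720 strongest nuclear peaks of replicate 2 alone there were 3, cdc-48.1, ufd-2 and ufd-3, against 9.91% of all genes. With those of replicate 1 alone there were also 3, but cdc-48.2 took the place of ufd-2, against 9.99%. A window from 500 bp upstream to 100 bp downstream kept cdc-48.1, ufd-2 and ufd-3 (background 8.45%), as did one from 2000 bp upstream (13.5%), an overlap of 1 bp between peak and window (11.2%) and the 5′ ends of all annotated transcripts (also 11.2%). Among the 1360 strongest peaks of the thresholded list, 2 remained, cdc-48.1 and ufd-3, against 6.07%. The relaxed lists gave 5 of 7 in the pooled list against 41.0% of all genes, 5 in replicate 1 against 38.8% and 4 in replicate 2 against 41.9%, so the higher counts there stand beside a background that is higher too.

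Beyond the promoters, the thresholded list held 2 further peaks within 5 kb upstream of the 7 genes and 0 in their introns. The share of all protein-coding genes with an intronic peak was not computed, so the 0 has no background beside it. Counting all summits within 5 kb upstream, 4 of the 7 genes had a thresholded peak, against 19.8% of protein-coding genes. One of the further peaks lay 2907 bp upstream of ufd-3, at 9937688 to 9938003, with a signal of 29.6 and rank 2393. It differed widely between replicates, with a signal of 35.1 and rank 334 in replicate 2 and a signal of 6.25 and rank 9245 in replicate 1. Its nearest 5′ end is that of C05C10.3, 953 bp away, so it lies in the promoter window of that gene. The other lay 3414 bp upstream of npl-4.2, at 5619317 to 5619632, with a signal of 32.96 and rank 1930. In replicate 1 it had a signal of 8.90 and rank 5715, and in replicate 2 a signal of 12.2 and rank 3691. It was thus outside the 2720 strongest of either replicate. Its nearest 5′ end is that of dhs-6, 156 bp away, so it too lies in the promoter window of another gene.

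Intronic entries of these genes were few and weak. Without the share over all genes, this cannot be called a trait of the 7 genes. The pooled list had 2 in cdc-48.1, with signals of 11.2 and 5.14 and ranks of 9666 and 24647. Replicate 1 had 1 in cdc-48.1, at rank 18124, and replicate 2 had 1 in ufd-3, at rank 20649. None of the other 5 genes had a summit in its introns in any list. In the 5 kb before ufd-1, entries in introns of F19B6.1 reached pooled signals of 19.4 and 15.7 (ranks 4637 and 6221), both above the promoter entry of ufd-1 itself. Before cdc-48.2, 7 pooled entries with signals from 5.62 to 9.97 lay in ctns-1 and ulp-4 or, for 1 of them, between genes, while before cdc-48.1 there were 2 beyond the promoter window, of 5.07 and 4.13.

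The summits differed in base composition. GC content within 50 bp of the pooled summit was 39.6% at cdc-48.1, 38.6% at cdc-48.2 and at ufd-1, 46.5% at ufd-3 and 50.5% at ufd-2. Over the 2720 thresholded summits it averaged 45.3% ± 7.88 (SD), and over windows 300 bp to each side of them 34.9% ± 8.35. The strong peak of cdc-48.1 was thus poorer in G and C than most, with 2014 of the 2720 summits above it.

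**Figure D3:**
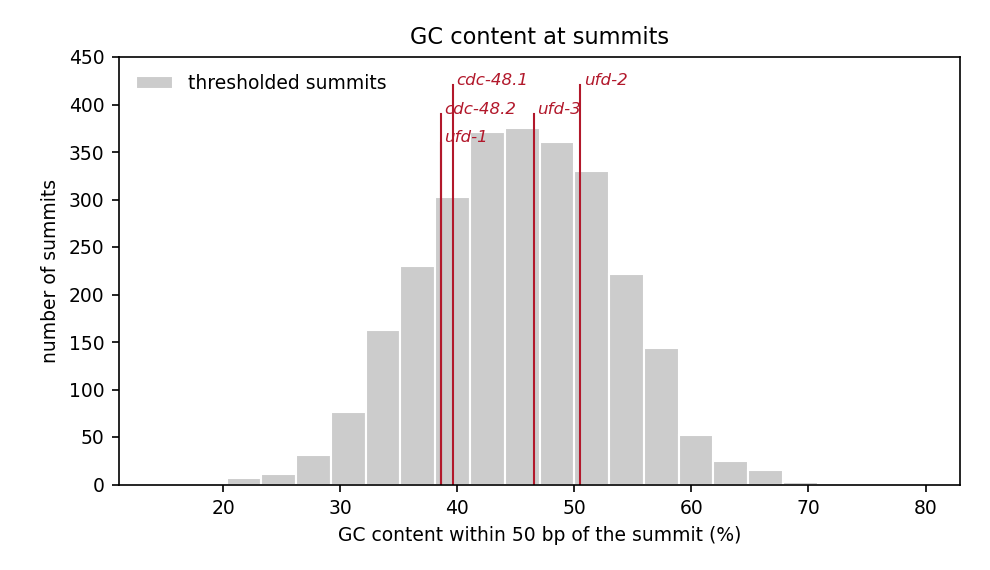
Number of thresholded summits by GC content within 50 bp (grey bars), with the values of the 5 genes that had a pooled promoter entry as vertical lines. cdc-48.1, cdc-48.2 and ufd-1 lie below the mean of 45.3%, ufd-3 and ufd-2 above it.

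14 motifs were sought on both strands in the 101 bases around the summits, most of them chosen with results of these data known. They were AAAGGTCA, the NR4A site, and its core AGGTCA, the AP-1 site TGACTCA and its reverse complement TGAGTCA, which are 1 site, the repeat GAGAGA and the strings CCCTC and CGTCTC and GACGCA and GCGCGC, the core of the cAMP response element TGACG, the E-box CACGTG, the CCAAT box, the heat-shock element TTCTAGAA and the TATA box TATAAA. Neither the NR4A site nor its core, which lies within it, was found at any of the 5 summits. Among thresholded summits 0.735% held AAAGGTCA and 3.71% AGGTCA. The cdc-48.1 summit had 1 match to TGACG, as CGTCA, found at 19.6% of thresholded summits, and 1 to TATAAA, found at 4.56%. The ufd-2 summit had 1 match to GAGAGA, as TCTCTC, found at 27.3%. The cdc-48.2 summit had 2 matches to CCAAT, as ATTGG, found at 15.7%, and those of ufd-3 and ufd-1 had none. In the 300 bases around the 5′ end, TGACG was in 4 of the 7 genes (cdc-48.1, ufd-3, npl-4.1 and npl-4.2) and in 29.5% of all promoters. CCAAT was in 3 of the 7 and in 45.5%. CACGTG was in 2 (ufd-1 and ufd-2) and in 5.82%, CGTCTC in 2 (cdc-48.2 and ufd-2) and in 11.2%, and CCCTC in 2 (npl-4.1 and npl-4.2) and in 21.9%. The promoters of npl-4.1 and npl-4.2 are nearly the same sequence, so their matches are not separate ones. GAGAGA, in 21.8% of all promoters, GCGCGC, in 3.58%, and TATAAA, in 37.9%, were each in 1 of the 7. The other motifs were in 0 of the 7, among them AAAGGTCA, in 1.29% of all promoters. A match is a string of letters and no evidence of binding, and no match says only that these letters are not in the window.

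Other genes of the CDC-48 pathway and other AAA ATPases outside the proteasome were listed by their roles and not by their peaks. The lists were made with earlier results of these data known. Of 29 names, 28 were found in the annotation (fign-1 was not matched). Of these 28, 13 had a thresholded promoter peak (46.4%), against 10.5% of protein-coding genes. The 28 include 7 genes listed as other AAA ATPases and not for a role with CDC-48, which gave 4 of the 13. Their median signal was 38.9, against 41.9 over all 2097 genes with such a peak, so the peaks that were there were of ordinary strength. With the 1360 strongest thresholded peaks the count was 6 of 28 (21.4%), against 6.07%. 6 of the 13 share their peak with a neighbouring gene. The same share over all 2097 genes was not computed, so the 6 cannot be called many or few. No test was made.

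By role, genes of UBX-domain proteins, adaptors that dock on CDC-48, had peaks in 2 of 6 cases. These were ubxn-3 (signal 47.7, rank 844), related to human FAF1, and ubxn-2 (38.9, rank 1380), related to the p47 adaptor. The ubiquitin machinery of endoplasmic reticulum-associated degradation (ERAD) had them in 4 of 8. They included ubc-7, a ubiquitin-conjugating enzyme (89.3, rank 108), and sel-1, a partner of the ERAD ligase (33.2, rank 1897). The others were ubc-6, another conjugating enzyme (31.5, rank 2127), shared with aka-1, and cup-2, a derlin (28.97, rank 2487), shared with tag-353. The peak of ubc-7 was strong in both replicates, at ranks 399 in replicate 1 and 58 in replicate 2. That of cup-2 ranked 2198 in replicate 1 and 2074 in replicate 2. In replicate 1, sel-1 ranked 4236 and ubc-6 ranked 4045, outside the 2720 strongest. In replicate 2 they ranked 1608 (sel-1) and 1858 (ubc-6).

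Genes acting on the extracted proteins had peaks in 3 of 7 cases. The ubiquilin gene ubql-1 had a signal of 66.3 (rank 304), shared with pdi-3. The gene of the DNA-protein crosslink protease DVC-1 had 39.2 (rank 1355), shared with ima-1. The ubiquitin shuttle gene rad-23 had 31.99 (rank 2062), shared with the proteasome gene rpn-12, and ranked 8657 in replicate 1 and 699 in replicate 2. Other AAA ATPases outside the proteasome had peaks in 4 of 7 cases, namely spas-1, the microtubule-severing spastin (58.1), nsf-1, which takes apart SNARE complexes (55.2), pch-2, which acts in meiosis (38.03), and vps-4, which recycles ESCRT-III (35.6). The peak of nsf-1 is shared with adr-1. None of the 13 reached the signal of cdc-48.1.

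**Figure D4:**
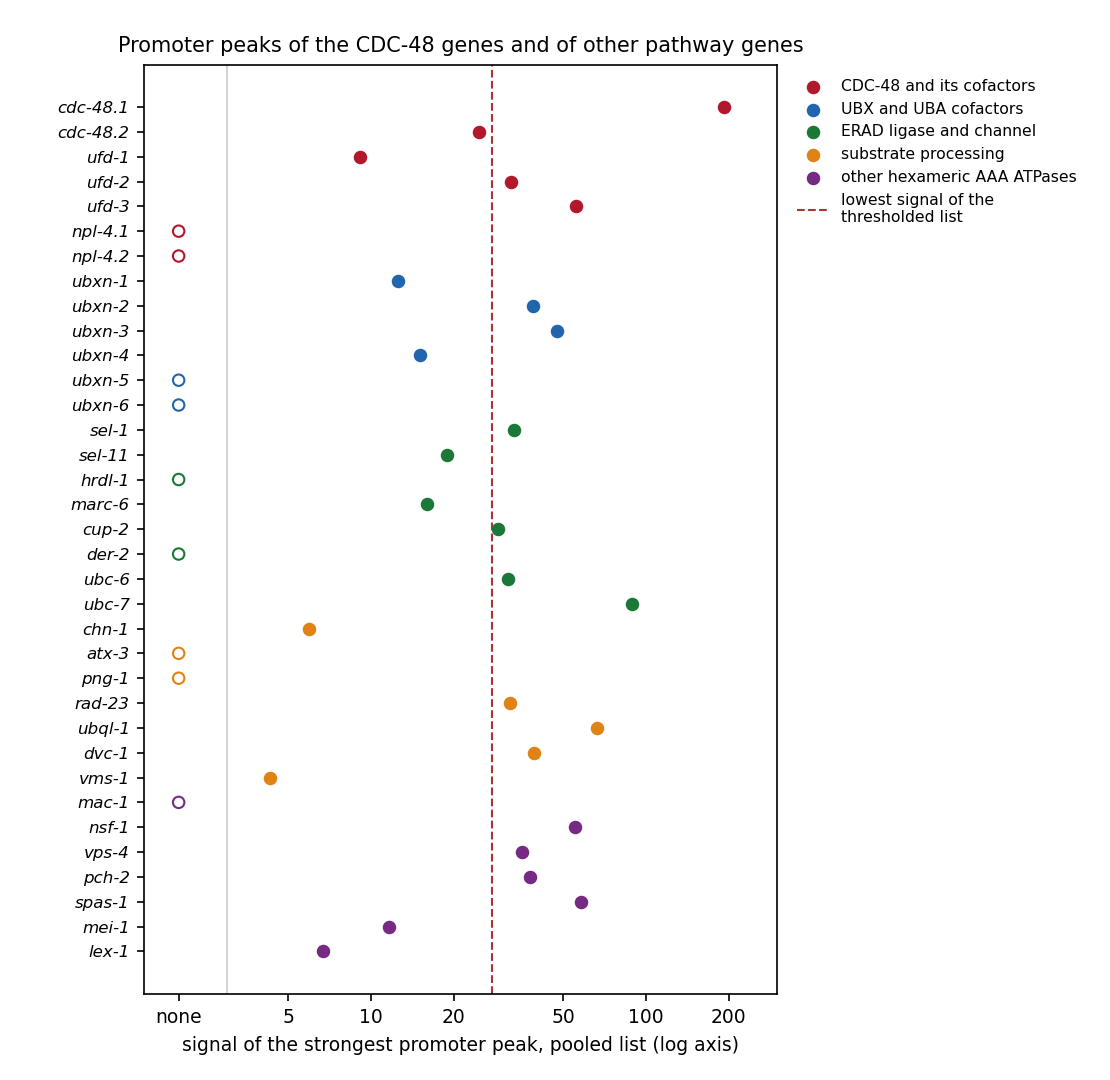
Signal of the strongest promoter peak in the pooled list (log axis), coloured by role. The genes are the 7 CDC-48 genes, the other pathway genes and the other AAA ATPases. Open circles at the left mark genes without a pooled entry in the window, and the dashed line is the lowest signal of the thresholded list, 27.5. cdc-48.1 at 193.1 is the highest of the genes shown, followed by ubc-7 at 89.3.

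The promoter peaks most like that of cdc-48.1 were those with the smallest distance in log2 rank over the 2 replicates, among 5583 other genes with a promoter entry in both relaxed lists. They were those of K01G5.10 and tasp-1, which share a single peak, and of cept-2. The shared peak ranked 32 in replicate 1 and 6 in replicate 2, and its distance from cdc-48.1 was 0.66. That of cept-2 ranked 27 in replicate 1 and 8 in replicate 2, at a distance of 0.77. Their thresholded signals were 167.7 for the shared peak and 161.0 for cept-2, against 193.1 for cdc-48.1.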

How the data were processed

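The authors deposited relaxed lists of peaks and background for each replicate and for both pooled, and a further list cut by irreproducible discovery rate, per the deposited text listings, which name a control alignment as well. The peak caller was not given in the sources used here, nor was the aligner. In the deposited lists the signal is in one column, the −log10 q-value in another and the summit position in the last. Only the ce11 lists were used, and no coordinates were converted. The pooled and replicate 2 lists stop at 30000 entries.

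Summits were set against the Ensembl release 115 annotation of WBcel235, within whose chromosome lengths all nuclear entries lie, and sequence came from the RefSeq genome of that build. Protein identity was computed on translations of the longest annotated coding sequence. Python 3.11.15, numpy 2.4.6, pandas 2.3.3, Biopython 1.88 and matplotlib 3.10.9 were used. The assignment of summits to windows was tested on simulated data.

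The genes, the lists and most motifs were chosen with earlier results of these data known. Named were the 7 genes, the pathway genes and other AAA ATPases with thresholded peaks, neighbours of their peaks, and the 3 genes closest to cdc-48.1 in rank. Alternatives changed the window, threshold, overlap rule, transcript ends and replicates.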

Additional observations from a re-analysis of the deposited data

How the results depend on the processing

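Of the 7 genes, 3 had a promoter peak with the thresholded list. The count was 3 to 3 when either replicate was left out and 2 with its 1360 strongest peaks, but cdc-48.2 replaced ufd-2 in the strongest peaks of replicate 1. cdc-48.1 and ufd-3 had one under every rule tried. The rank of cdc-48.1 minus that of cdc-48.2 was -3265 in the pooled list, ran from -3776 to -2350 over the single replicates and was -3265 with each other window and with nuclear chromosomes only. The value of -3776, from replicate 2, uses the cdc-48.2 entry at 852 bp upstream, which is nearer to the 5′ end of ctns-1. For the other pathway genes and AAA ATPases, an alternative chosen after seeing the data, the 1360 strongest peaks, gave 6 against 13. The shorter list also had a lower background, 6.07% against 10.5%. Leaving out a replicate gave 10 to 13. No paired analysis was possible because there is 1 group. Outlier checks need 4 samples in a group and were not run. With 2 replicates and no read counts, the error of a single signal cannot be stated, and weak entries cannot be told from background.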
